A study of Mus musculus with 18 samples.

Results

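The 10 genes described here encode subunits of the SWI/SNF chromatin remodeler (Smarca4, Smarca2, Smarcb1, Smarcc1, Smarcc2, Smarcd1, Smarcd2, Arid1a, Arid1b and Pbrm1), found by gene symbol among the 34896 genes of the expression table. The data came from bone marrow cells of adult C57BL/6 mice aged 6 to 12 weeks, sorted at 3 stages of neutrophil development. These were granulocyte-monocyte progenitors (GMPs), pre-neutrophils (preNeu) and mature neutrophils (matNeu). RNA-seq was done on 3 libraries per stage, and ChIP-seq and ATAC-seq had 1 library per group. All groups were wild type except the GMPs of 1 of the CHD4 ChIP-seq libraries, which lacked the transcriptional repressor Gfi1 (Gfi1-/-) and were set beside WT GMPs. GMPs were sorted as lineage-negative, c-KIT+, SCA1- cells positive for CD34 and the Fc receptor, preNeu as MAC-1+ GR1+ cells with high cKIT and intermediate CXCR4, and matNeu as CXCR2+ cells of the MAC-1+ GR1+ gate. Nothing in the labels says whether the libraries of a stage came from separate animals, and a p-value then measures only the spread between these libraries.

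SWI/SNF complexes use the energy of ATP to slide or evict nucleosomes and so open promoters and enhancers. Each complex carries a single ATPase, SMARCA4 (BRG1) or SMARCA2 (BRM). In the canonical BAF and PBAF forms it sits on a core of SMARCB1, a pair of SMARCC scaffolds and a SMARCD subunit. ARID1A and ARID1B are mutually exclusive members of the canonical BAF form, PBRM1 belongs to the PBAF form, and BRD9 to the noncanonical form. In the neutrophil lineage SMARCD2 is needed for granule formation, and its loss causes a specific granule deficiency. NuRD, whose ATPase CHD4 was mapped by ChIP-seq, is another remodeler that also carries histone deacetylases.

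The stages were checked against their marker genes. The summed level of 6 GMP markers, among them Mpo and Elane, was 45267 to 47154 TPM in GMPs and 9.32 to 32.7 TPM in matNeu. In preNeu it was 8320 to 9360 TPM. The 6 preNeu markers summed to 145613 to 171432 TPM in preNeu, 95.4 to 113.0 TPM in GMPs and 4564 to 6847 TPM in matNeu. The 6 matNeu markers reached 42269 to 63917 TPM in matNeu against 174 to 193 TPM in GMPs. In preNeu they reached 25106 to 30238 TPM, mostly from S100a8 (24049 to 29349 TPM). That gene overlapped between the later stages, with 14320 to 32250 TPM in matNeu. TPM gives each mRNA as a share of its library, corrected for transcript length, so that levels can be compared between genes. Between 10754 and 12256 genes reached 1 TPM in a library, and libraries of a stage correlated at 0.960 to 0.971 in Pearson's r on the log2(TPM + 1) scale across genes. Markers of other cells also differed between the stages. The 4 monocyte and dendritic cell markers summed to 1638 to 1962 TPM in GMPs, 32.0 to 60.8 TPM in preNeu and 264.9 to 377.9 TPM in matNeu. In matNeu that sum was mostly Csf1r (252.8 to 349.6 TPM), while Ly86, Irf8 and F13a1 each stayed at or below 19.2 TPM. The 3 eosinophil and basophil markers summed to 879 to 1136, 75.5 to 121.0 and 0.481 to 2.46 TPM in the same order of stages, with Epx listed at 0 in every matNeu library. The 2 megakaryocyte markers summed to 33.0 to 48.9, 1.30 to 4.65 and 2.90 to 4.58 TPM. The 3 T cell and the 3 erythroid markers stayed at or below 14.3 and 6.94 TPM in every library. The part of such cells in the results below was not tested. In bulk samples, fewer cells of a type and less RNA per cell cannot be told apart.

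The mRNAs of the ATPases moved in opposite directions from GMP to matNeu, and did so under every scaling of TPM tried (as deposited, scaled by the median of ratios, or with the most abundant genes left out). Smarca4 (chr9:21616169-21704230) stood at 69.3, 74.1 and 68.8 TPM in the GMP libraries, 41.2, 41.5 and 48.6 TPM in preNeu and 8.21, 5.48 and 11.9 TPM in matNeu. The 3 stages did not overlap, and matNeu lay lowest. Smarca2 (chr19:26605050-26778322) stood at 32.8, 29.9 and 30.5 TPM in GMPs, 30.7, 42.2 and 43.0 TPM in preNeu and 58.2, 54.1 and 51.5 TPM in matNeu. Its matNeu libraries lay above all others, while 1 preNeu library lay within the range of the GMPs. From GMP to matNeu, Smarca4 fell by 2.97 ± 0.23 (SE) on the log2(TPM + 1) scale, or 7.83-fold (limma, adjusted p = 4.6e-07), and Smarca2 rose by 0.79 ± 0.16, or 1.73-fold (limma, adjusted p = 0.000987). Most of the fall of Smarca4 came after the preNeu stage (-2.29 ± 0.23, limma, adjusted p = 6.96e-06). Its earlier difference from GMP to preNeu (-0.68 ± 0.23, limma, adjusted p = 0.0246) was less firm. It missed the threshold without GMP replicate 1, 2 or 3 or preNeu replicate 1 or 2 (adjusted p from 0.053 to 0.0711) and under both other scalings of TPM. For Smarca2 the difference from GMP to preNeu (0.29 ± 0.16) was not called (limma, adjusted p = 0.148), but it was without preNeu replicate 1 (adjusted p = 0.0307) and under both other scalings. The rise from preNeu to matNeu (0.50 ± 0.16, limma, adjusted p = 0.0194) was lost without that same library (adjusted p = 0.0703), without matNeu replicate 1 (adjusted p = 0.0613) and with the most abundant genes left out.

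**Figure D1:**
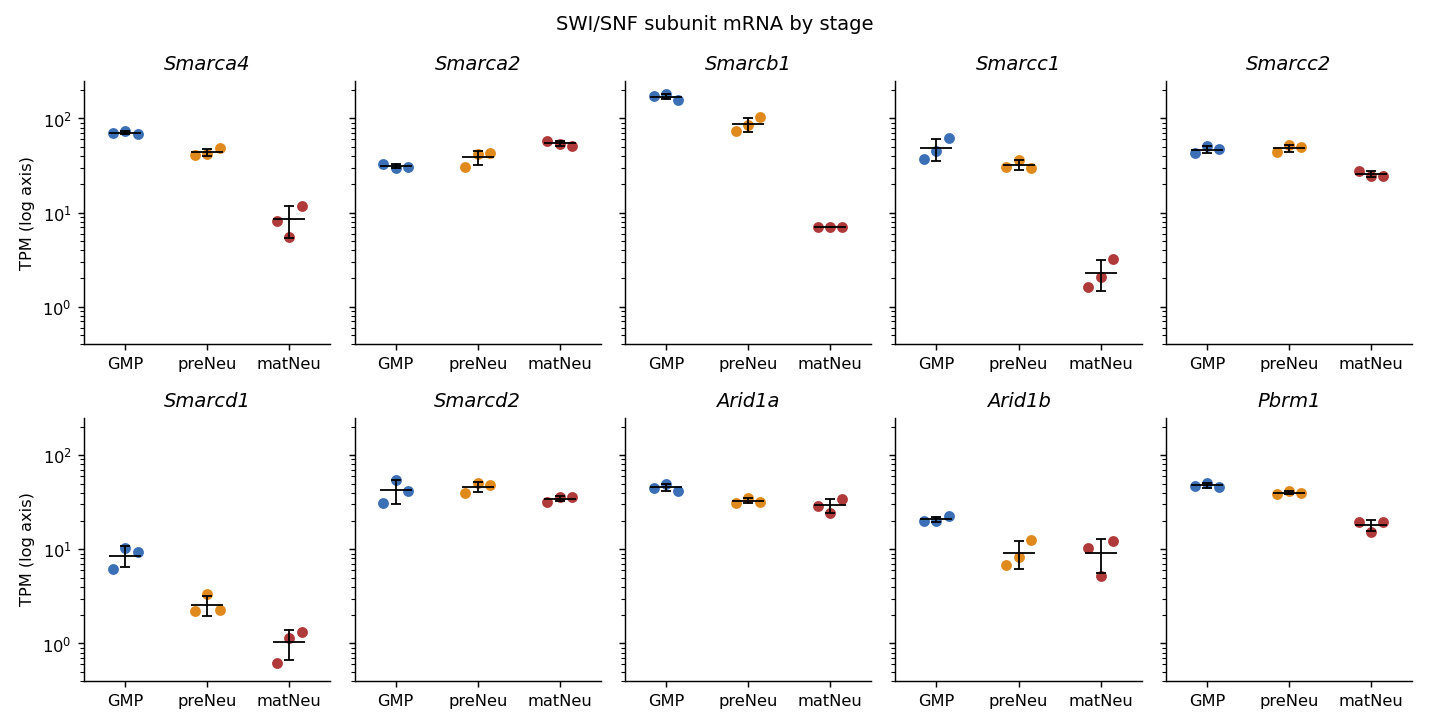
Level of each SWI/SNF subunit mRNA in TPM (log axis) in the 3 libraries of each stage; points are libraries, the long dash is the mean and the bars are ± 1 SD. The matNeu libraries of Smarca4, Smarcb1 and Smarcc1 lie far below those of the other stages, while Smarca2 is highest in matNeu at 51.5 to 58.2 TPM.

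The proportion of the ATPase mRNAs changed accordingly. Smarca4 made up 69.5% ± 1.7 (SD, n = 3) of the summed Smarca4 and Smarca2 level in GMPs, 53.3% ± 3.9 in preNeu and 13.4% ± 4.8 in matNeu. A ratio of paralogs within a library does not depend on how the libraries are scaled to each other. The log2 ratio of Smarca4 to Smarca2 was 1.08, 1.31 and 1.18 in the GMP libraries, 0.43, -0.02 and 0.18 in preNeu and -2.82, -3.30 and -2.12 in matNeu. All GMP libraries held more Smarca4, all matNeu libraries held more Smarca2, and the preNeu libraries lay between them without overlap. The exact two-sided permutation test over the 3 stages gave p = 0.00357, the smallest that the 9 libraries allow (adjusted p = 0.00476 over 4 ratios). A comparison of 3 libraries with 3 alone cannot go below an exact p of 0.1. The sum of both mRNAs was 101.8 ± 2.37 TPM in GMPs, 82.4 ± 9.96 TPM in preNeu and 63.1 ± 3.38 TPM in matNeu (SD, n = 3).

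Both ATPase genes carried H3K4me2, a histone mark of active and poised regulatory regions, at their first start in every stage. The peaks at that start spanned 2829, 5415 and 2736 bp at Smarca4 and 4826, 5460 and 4964 bp at Smarca2 in GMP, preNeu and matNeu. ATAC-seq, which marks open chromatin, gave a peak at both starts in the list that was deposited for both preNeu and matNeu. Smarca2 carried another H3K4me2 peak at an annotated internal start, centred 143134 bp from the gene start in GMP, with a fold enrichment of 3.07 in GMP, 8.21 in preNeu and 7.57 in matNeu. The gene-level TPM does not separate transcripts from this start from those of full length. The 250 bases before the first annotated start of each ATPase gene are shown because these regions carried the mark at every stage while the mRNA levels moved apart. The sequences are GRCm38, read 5′ to 3′ along the gene, with each CpG dinucleotide in capitals.
Smarca4, chr9:21615919-21616168, + strand: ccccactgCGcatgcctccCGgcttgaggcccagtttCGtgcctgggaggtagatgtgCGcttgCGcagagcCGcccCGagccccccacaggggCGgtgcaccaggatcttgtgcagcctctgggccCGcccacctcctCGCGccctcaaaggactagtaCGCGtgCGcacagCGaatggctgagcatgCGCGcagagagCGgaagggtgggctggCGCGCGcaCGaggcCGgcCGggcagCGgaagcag
Smarca2, chr19:26604800-26605049, + strand: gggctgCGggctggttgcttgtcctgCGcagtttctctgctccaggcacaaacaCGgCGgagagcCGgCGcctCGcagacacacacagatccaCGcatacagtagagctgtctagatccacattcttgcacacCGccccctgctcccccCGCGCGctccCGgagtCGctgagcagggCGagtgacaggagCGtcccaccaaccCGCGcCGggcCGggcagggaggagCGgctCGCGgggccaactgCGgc
The windows held 25 and 24 CpG, beside a median of 13 for the same window over 11843 tested protein-coding genes, and the 10 subunit genes ranged from 15 to 42. The promoters of both ATPase genes were thus alike in CpG count.

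In the scaffold pair, the share of Smarcc1 fell towards matNeu, as that of Smarca4 did among the ATPases. Smarcc1 (BAF155, chr9:110117708-110240178) stood at 37.1, 45.6 and 62.3 TPM in GMPs, 30.5, 36.7 and 29.4 TPM in preNeu and 1.62, 2.08 and 3.22 TPM in matNeu. The matNeu libraries lay far below the others. Smarcc2 (BAF170, chr10:128459248-128490482) stood at 42.8, 50.4 and 47.2 TPM in GMPs, 44.2, 51.9 and 49.3 TPM in preNeu and 27.9, 24.3 and 24.8 TPM in matNeu. Its GMP and preNeu libraries overlapped, and matNeu was lower. From GMP to matNeu Smarcc1 fell by 3.90 ± 0.25 on the log2(TPM + 1) scale, or 14.9-fold (limma, adjusted p = 1.13e-07). Smarcc2 was lower by 1.79-fold in the same comparison (-0.84 ± 0.14, limma, adjusted p = 0.000278), a difference that was 0.02 ± 0.13 (adjusted p = 0.903) when TPM was scaled by the median of ratios. From GMP to preNeu Smarcc2 was not called as deposited (0.05 ± 0.14, limma, adjusted p = 0.789) but was called higher under both other scalings (0.55 and 0.42). Smarcc1 made up 50.3% ± 5.8 of the pair in GMPs and 8.29% ± 3.0 in matNeu. The log2 ratio of Smarcc1 to Smarcc2 was -0.21, -0.15 and 0.40 in GMPs, -0.54, -0.50 and -0.74 in preNeu and -4.11, -3.55 and -2.94 in matNeu. The 3 stages did not overlap (exact permutation test, p = 0.00357, the smallest possible). From GMP to preNeu Smarcc1 was not called (-0.55 ± 0.25, limma, adjusted p = 0.0847), but was just past the threshold without GMP replicate 1 (adjusted p = 0.0498).

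Smarcd1 and Smarcd2 form another pair, of which a complex holds a single member. Smarcd1 (chr15:99702129-99713991) was the scarcest of the 10 mRNAs, with 6.18, 10.2 and 9.37 TPM in GMPs, 2.22, 3.32 and 2.24 TPM in preNeu and 0.62, 1.14 and 1.33 TPM in matNeu. Smarcd2 (chr11:106263179-106272972) stood at 30.9, 54.3 and 41.9 TPM in GMPs, 40.1, 50.4 and 48.6 TPM in preNeu and 32.2, 35.7 and 35.6 TPM in matNeu. The GMP libraries of Smarcd2 spanned the levels of both later stages, whereas those of Smarcd1 lay above all others. Smarcd1 fell by 1.41 ± 0.28 from GMP to preNeu on the log2(TPM + 1) scale (limma, adjusted p = 0.00154) and by 2.23 ± 0.28, or 4.69-fold, from GMP to matNeu (limma, adjusted p = 2.74e-05). Its step from preNeu to matNeu (-0.83 ± 0.28, limma, adjusted p = 0.026) was lost without preNeu replicate 2 (adjusted p = 0.088) or matNeu replicate 1 (adjusted p = 0.0943), without a filter on TPM and under median-of-ratios scaling. Smarcd2 was the one gene of the 10 with no call in any comparison of TPM as deposited (limma, adjusted p = 0.532, 0.0996 and 0.269), but under both other scalings it was higher in preNeu than in GMP (0.66 and 0.53). From preNeu to matNeu (-0.41 ± 0.20) it was called lower when the compared stages were fitted alone (adjusted p = 0.0378) or the most abundant genes were left out (adjusted p = 0.0114). From GMP to matNeu its estimate was -0.25 ± 0.20, and it turned to 0.61 ± 0.19 when TPM was scaled by the median of ratios (limma, adjusted p = 0.0131). Without GMP replicate 1 it was -0.46 (adjusted p = 0.0447). Smarcd1 made up 16.9% ± 1.2 of the pair in GMPs, 5.28% ± 0.88 in preNeu and 2.86% ± 0.87 in matNeu (SD, n = 3). The log2 ratio of Smarcd1 to Smarcd2 was -2.32, -2.41 and -2.16 in GMPs, -4.18, -3.93 and -4.44 in preNeu and -5.69, -4.97 and -4.74 in matNeu. No stage overlapped another (exact permutation test, p = 0.00357, the smallest possible). Unlike for the ATPases and the scaffolds, the larger step of this mean ratio came before the preNeu stage (-1.88, against -0.95 after it).

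**Figure D2:**
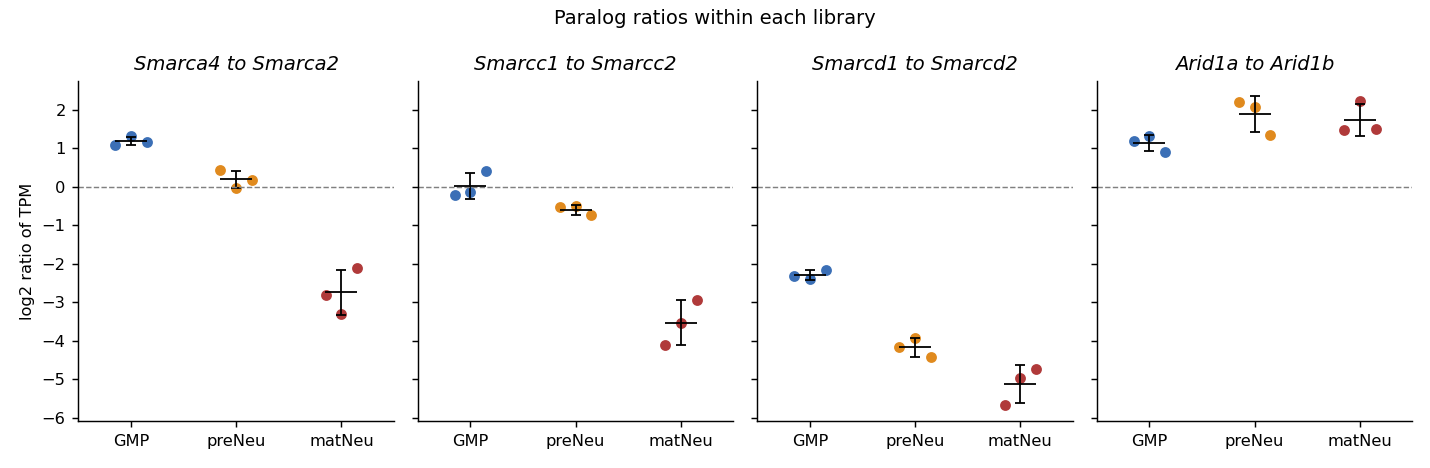
log2 ratio of TPM of each paralog pair within each of the 9 libraries; points are libraries, the long dash is the mean, the bars are ± 1 SD and the dashed line marks equal levels. The first 3 ratios are separated by stage, with matNeu lowest (means -2.75, -3.53 and -5.13), while Arid1a to Arid1b stays between 0.91 and 2.22 in every library.

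Smarcb1 (SNF5 or BAF47, chr10:75896769-75921617), the core subunit without a paralog, showed the largest fall of the 10 from GMP to matNeu. It stood at 174.7, 180.9 and 157.8 TPM in GMPs, where it was the most abundant of the 10, at 72.9, 84.5 and 103.0 TPM in preNeu and at 7.10, 7.10 and 7.08 TPM in matNeu. The stages did not overlap. It fell by 0.98 ± 0.15 from GMP to preNeu on the log2(TPM + 1) scale (limma, adjusted p = 0.000286) and by a further 3.43 ± 0.15 to matNeu (limma, adjusted p = 1.67e-08). From GMP to matNeu the fall was 21.2-fold (limma, adjusted p = 1.37e-09). It kept its call in each of these comparisons under both other scalings of TPM.

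Arid1a and Arid1b, the alternative ARID subunits of BAF, were both highest in GMPs. Arid1a (chr4:133679008-133756769) stood at 45.2, 49.6 and 42.1 TPM in GMPs, 31.3, 35.1 and 32.1 TPM in preNeu and 28.8, 24.5 and 34.6 TPM in matNeu. Arid1b (chr17:4994332-5347656) stood at 20.0, 19.8 and 22.4 TPM in GMPs, 6.76, 8.28 and 12.6 TPM in preNeu and 10.3, 5.26 and 12.1 TPM in matNeu. For both genes every GMP library lay above the later stages, which overlapped. From GMP to matNeu Arid1a was lower by 1.55-fold (-0.63 ± 0.16, limma, adjusted p = 0.00452) and Arid1b by 2.23-fold (-1.15 ± 0.31, limma, adjusted p = 0.00552), but neither was called with median-of-ratios scaling, where Arid1a turned to 0.23 ± 0.14. From GMP to preNeu Arid1b was lower by 1.13 ± 0.31 (limma, adjusted p = 0.00915), a call lost under both other scalings. Arid1a was lower by 0.46 ± 0.16 (limma, adjusted p = 0.0318), and this call was lost without GMP replicate 1 or 2 or preNeu replicate 1 or 3 (adjusted p from 0.0665 to 0.102) and under both other scalings. The log2 ratio of Arid1a to Arid1b averaged 1.14 ± 0.21 in GMPs, 1.88 ± 0.47 in preNeu and 1.74 ± 0.42 in matNeu (SD, n = 3). Arid1a was the higher in all 9 libraries. The difference between stages did not pass the exact permutation test (p = 0.0929), but did without preNeu replicate 3 (exact p = 0.0464).

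Pbrm1 (polybromo, chr14:31019138-31121592), the bromodomain subunit of PBAF, stood at 46.5, 50.7 and 46.0 TPM in GMPs, 38.5, 41.7 and 39.8 TPM in preNeu and 19.5, 15.4 and 19.5 TPM in matNeu. The stages did not overlap. It fell by 1.11 ± 0.15 from preNeu to matNeu on the log2(TPM + 1) scale, or 2.15-fold (limma, adjusted p = 8.11e-05). The smaller difference before that (-0.25 ± 0.15) was not called (limma, adjusted p = 0.181) and turned to 0.25 ± 0.13 with median-of-ratios scaling.

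Counted over the 10 genes, 5 were called lower and 0 higher in preNeu than in GMP, where limma called 44.3% of all 13061 tested genes lower and 14.7% higher. At an unadjusted p under 0.05 the count of higher genes was also 0. From preNeu to matNeu 6 were lower and 1 was higher (over all genes 39.8% and 22.9%). From GMP to matNeu 8 were lower and 1, Smarca2, was higher (over all genes 54.1% and 22.8%). All 10 genes passed the filter on low TPM. TPM is a share of the library, and the median of all tested genes was itself shifted, by -0.52, -0.32 and -0.92 on the log2 scale in the 3 comparisons in the same order. The median of the 10 genes was -0.50, -0.86 and -1.26. With TPM scaled by the median of ratios, the calls among the 10 were 2 lower and 3 higher from GMP to preNeu, 5 and 1 from preNeu to matNeu, and 5 and 2 from GMP to matNeu, and the median of all genes moved to -0.09, -0.07 and -0.20. Over all 13061 tested genes that scaling gave 6698, 8357 and 9951 calls, of which 54.9%, 52.8% and 54.8% were lower. Smarca4, Smarcb1, Smarcc1, Smarcd1 and Pbrm1 were lower and Smarca2 higher in matNeu than in GMP under every scaling.

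The 20 other SWI/SNF subunits examined were counted in the same way. Of these, 15 were tested, while Smarcd3, Actl6b, Dpf1, Dpf3 and Bcl11b had too few libraries above 1 TPM. From GMP to preNeu 6 were lower and 2 higher, from preNeu to matNeu 10 and 2, and from GMP to matNeu 12 and 2. The shares lower and higher over all tested genes were 44.3% and 14.7%, 39.8% and 22.9%, and 54.1% and 22.8%. Actl6a (BAF53A), the actin-like subunit that accompanies the ATPase, stood at 200.5, 229.3 and 201.0 TPM in GMPs and at 10.2, 4.60 and 4.32 TPM in matNeu. It had the largest fall of the 15 (-4.93 ± 0.26, limma, adjusted p = 2.16e-08), and its neuronal paralog Actl6b stayed at or below 0.25 TPM in every library. Bcl7a (-3.36 ± 0.27), Bcl7c (-3.10 ± 0.37), Bcl11a (-2.74 ± 0.28) and Smarce1 (-2.06 ± 0.20) were also lower in matNeu than in GMP under every scaling. Dpf2, Ss18, Arid2 and Phf10 were lower by 1.00 to 1.05 on the log2 scale as deposited, close to the median of all genes, and were not called with median-of-ratios scaling.

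Brd9 of the noncanonical form and Arid2 of PBAF were highest in the middle stage. Brd9 stood at 58.8, 68.2 and 47.0 TPM in GMPs, 82.2, 109.9 and 128.5 TPM in preNeu and 33.3, 33.8 and 34.1 TPM in matNeu. It rose by 0.86 ± 0.19 (limma, adjusted p = 0.00252) and then fell by 1.61 ± 0.19 (limma, adjusted p = 2.37e-05) on the log2(TPM + 1) scale. Arid2 rose by 0.51 ± 0.19 (limma, adjusted p = 0.0418) and then fell by 1.54 ± 0.19 (limma, adjusted p = 4.17e-05). Both steps of both genes were called under every scaling. The rise of Brd9 held when any 1 library was left out, whereas that of Arid2 was lost without any 1 of the 6 GMP and preNeu libraries (adjusted p from 0.0514 without GMP replicate 2 to 0.114 without GMP replicate 1) and with a pseudocount of 0.1 (adjusted p = 0.0513). Besides Smarca2, the subunits higher in matNeu than in GMP were Bicra (1.24 ± 0.25, limma, adjusted p = 0.00103), a scaffold of the noncanonical form, and Ss18l1 (1.05 ± 0.34, limma, adjusted p = 0.0163), the paralog of Ss18. The call of Ss18l1 was lost without GMP replicate 1 (adjusted p = 0.0607), GMP replicate 2 (adjusted p = 0.0552) or matNeu replicate 3 (adjusted p = 0.0602), while that of Bicra held without any 1 library. Bicra averaged 2.86 TPM in GMPs and 8.18 TPM in matNeu, and Ss18l1 3.16 and 7.47 TPM.

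**Figure D3:**
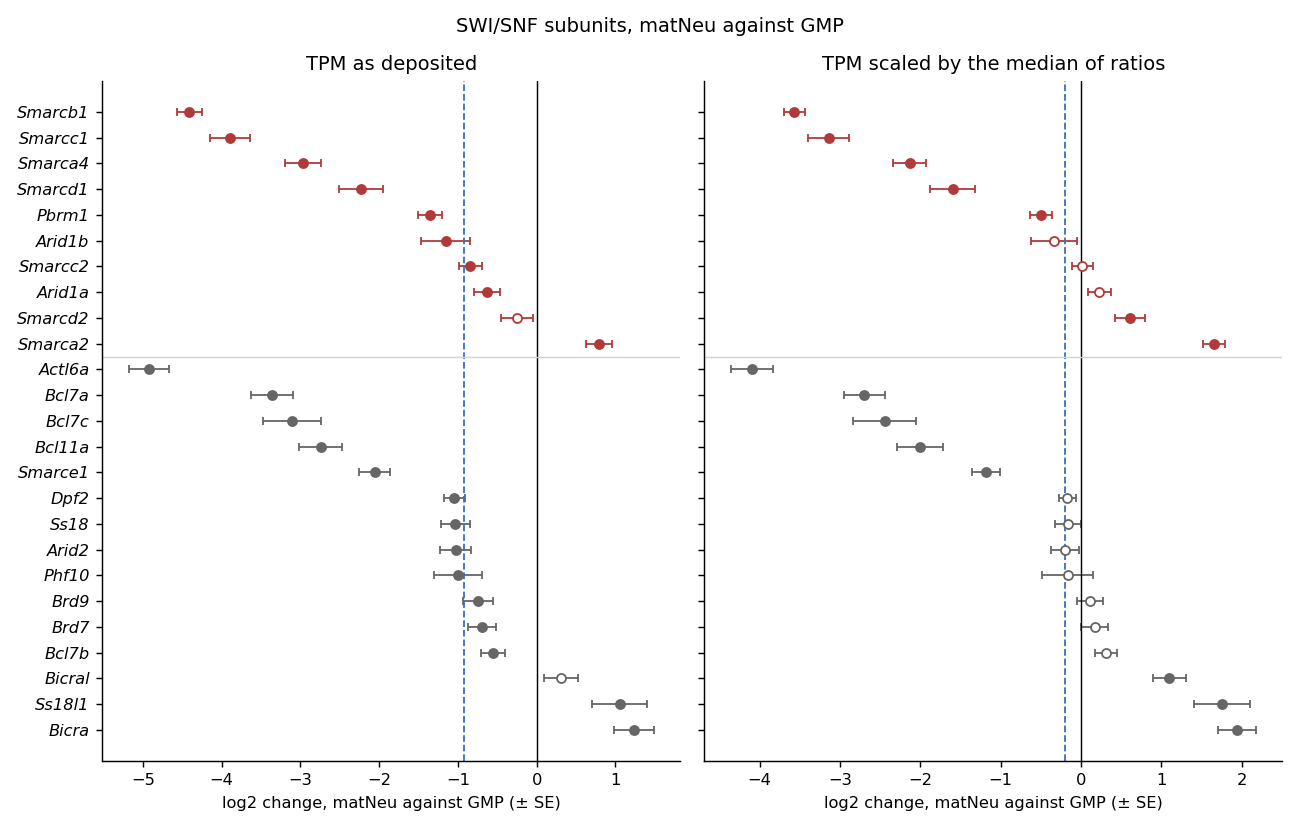
log2 change from GMP to matNeu ± SE on the log2(TPM + 1) scale for the 10 SWI/SNF genes described (red) and the 15 other tested subunits (grey), with TPM as deposited (left) and scaled by the median of ratios (right); filled points passed an adjusted p of 0.05 and the dashed line is the median of all tested genes. Smarcb1, Smarcc1, Smarca4, Smarcd1 and Actl6a lie left of the median in both panels, and Smarca2, Bicra and Ss18l1 lie right of 0 in both.

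For each of 4 paralogs, the 3 genes with the nearest pattern were found among all tested genes, by the Euclidean distance between log2(TPM + 1) values centred on the gene's mean over the 9 libraries. Nearest to Smarca4 were Cenpw (distance 0.41), Gars (0.47) and Cul2 (0.48). Nearest to Smarca2 were Nfkbie (0.32), Fnbp1 (0.34) and Pias1 (0.37). For Smarcd1 they were Synj2 (0.51), Cyp2j6 (0.53) and Fam43a (0.58), and for Smarcd2 Fuk (0.32), Banp (0.40) and Upf3a (0.44).

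CHD4 ChIP-seq was used to ask where CHD4, the ATPase of NuRD, sat near the SWI/SNF genes in GMPs. The samples hold no ChIP-seq of another NuRD subunit. In WT GMPs 31 CHD4 peaks lay within 10 kb of the 10 genes, of which 24 were at Arid1b, 5 at Arid1a and 1 each at Smarcc1 and Smarca2. The other 6 genes had no peak within 10 kb, so 4 of 10 genes had one, beside 43.3% of 11856 tested protein-coding genes. At a promoter, from 2 kb before to 500 bp after a start, only Arid1a of the 10 had a CHD4 peak, beside 16.4% of those genes. With 1 library per genotype these counts have no replicate check and no test was made. Chd4 mRNA itself averaged 79.8 ± 7.6 TPM in GMPs, 42.2 ± 6.4 TPM in preNeu and 31.7 ± 4.4 TPM in matNeu (SD, n = 3). It was lower in matNeu than in GMP (-1.31 ± 0.17, limma, adjusted p = 2.76e-05). The median of all tested genes was -0.92 in that comparison, and Chd4 was not refitted under the other scalings.

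Arid1b is a long gene, and its 24 CHD4 peaks all lay in introns. Their fold enrichment over background ran from 2.92 to 23.0 with a median of 7.15, beside 7.72 for all 35790 CHD4 peaks. Among 259 tested genes whose window, with its flanks, was at least 300 kb long, the median was 7 peaks and 12.7% had as many as Arid1b. In Gfi1-/- GMPs 3 CHD4 peaks remained near the 10 genes, all within Arid1b. Each overlapped a peak of WT GMPs, whose summits lay 69679, 86751 and 216717 bp from the gene start. The share of WT peaks with an overlapping peak in Gfi1-/- GMPs was therefore 9.68% (3 of 31), beside 18.5% of all WT peaks. The Gfi1-/- list was shorter as a whole, with 7316 peaks. The retained sites had fold enrichments of 10.9, 23.0 and 11.7 in WT GMPs and 5.79, 5.55 and 4.62 in Gfi1-/- GMPs. These values were not normalised between the libraries, so they do not rank the genotypes by the amount of CHD4. The Arid1b sites without a peak in Gfi1-/- GMPs had a median of 6.95-fold in WT GMPs, and the strongest of them stood at 14.6-fold. Whether retention went with the strength of the WT peak was not tested.

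The 200 bases around the WT summits of the 3 retained sites are printed first below. They are followed by the strongest site of Arid1b that had no peak in Gfi1-/- GMPs. The last is the strongest site near the 10 genes that held AAATCA, the letters searched for GFI1. Shorter or other forms of the GFI1 motif were not searched. All printed sites are intronic, read on the + strand of GRCm38. Capitals mark matches on either strand to AAATCA, to GAGGAAGT (PU.1) or to AANNGAAA (IRF factors).
Arid1b, chr17:5063911-5064110, + strand: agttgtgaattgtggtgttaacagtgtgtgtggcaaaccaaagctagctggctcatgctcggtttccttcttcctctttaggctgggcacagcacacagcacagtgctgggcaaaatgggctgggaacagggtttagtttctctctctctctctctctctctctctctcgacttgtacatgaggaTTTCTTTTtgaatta
Arid1b, chr17:5080983-5081182, + strand: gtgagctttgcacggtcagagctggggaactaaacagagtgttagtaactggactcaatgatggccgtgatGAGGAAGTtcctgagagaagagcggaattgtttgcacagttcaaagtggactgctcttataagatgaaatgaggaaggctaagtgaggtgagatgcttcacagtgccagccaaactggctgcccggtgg
Arid1b, chr17:5210949-5211148, + strand: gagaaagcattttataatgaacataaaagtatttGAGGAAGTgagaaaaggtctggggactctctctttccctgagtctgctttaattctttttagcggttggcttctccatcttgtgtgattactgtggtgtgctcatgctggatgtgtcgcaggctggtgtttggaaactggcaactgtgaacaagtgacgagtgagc
Arid1b, chr17:5311198-5311397, + strand: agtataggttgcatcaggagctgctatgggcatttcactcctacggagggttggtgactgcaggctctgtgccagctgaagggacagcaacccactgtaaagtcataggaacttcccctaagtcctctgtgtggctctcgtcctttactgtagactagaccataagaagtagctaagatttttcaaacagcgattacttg
Arid1b, chr17:5004811-5005010, + strand: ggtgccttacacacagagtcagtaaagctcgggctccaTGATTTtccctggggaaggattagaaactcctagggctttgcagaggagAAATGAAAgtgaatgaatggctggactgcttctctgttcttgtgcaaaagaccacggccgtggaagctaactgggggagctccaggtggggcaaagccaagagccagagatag
The first retained site held the IRF letters, the second and the third held the PU.1 letters, and none of the 3 held AAATCA. The fourth sequence held no match, and the fifth held AAATCA and the IRF letters. Over the 31 sites, 4 held AAATCA (12.9%), 4 held GAGGAAGT (12.9%) and 12 held AANNGAAA (38.7%). Over 35728 CHD4 summits on the assembled chromosomes the shares were 12.0%, 11.7% and 35.1%. The 31 sites thus held these letters about as often as CHD4 sites in general.

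At Arid1a, the CHD4 peak upstream of the gene (chr4:133757409-133757845) had its summit at -937 bp from the first start. It had a fold enrichment of 4.68 and overlapped H3K4me2 in every stage and an ATAC-seq peak. It is shown because it was the one CHD4 site at a promoter among the 10 genes, and it held none of the 3 motifs, so that no base is in capitals.
Arid1a, chr4:133757606-133757805, + strand: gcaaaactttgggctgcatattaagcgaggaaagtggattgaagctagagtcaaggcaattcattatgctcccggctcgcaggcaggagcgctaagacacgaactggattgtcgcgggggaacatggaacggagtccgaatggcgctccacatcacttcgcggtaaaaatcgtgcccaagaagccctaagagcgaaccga
The strongest of the 5 sites at Arid1a lay beyond the 3′ end of the gene (chr4:133673661-133674448, fold enrichment 14.0), with weaker ones on either side of it. The remaining site lay in an intron, at a fold enrichment of 5.79. None of the 5 had a peak in Gfi1-/- GMPs. The single sites of Smarcc1 (fold enrichment 6.34) and Smarca2 (fold enrichment 5.89) were intronic, overlapped H3K4me2 in no stage and had no peak in Gfi1-/- GMPs. The other 4 sites of Arid1a overlapped H3K4me2 in every stage.

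H3K4me2 marked a promoter of all 10 genes in all 3 stages, as it did for 89.6% of the tested protein-coding genes. The list of GMPs was the shortest and weakest, with 37643 peaks over 49.8 Mb, beside 49578 peaks over 97.9 Mb in preNeu and 44094 peaks over 80.4 Mb in matNeu. Within 10 kb of the 10 genes there were 43, 61 and 55 peaks in the same order. Some of these were centred in neighbouring genes, among them Derl3, Cspg5, Myl6, Gpd1 and Smim4. At the promoters the fold enrichment of the strongest peak was 3.25 to 5.13 in GMP, 5.79 to 13.6 in preNeu and 5.24 to 10.9 in matNeu. The median over tested genes moved with it, from 3.59 to 10.6 and 8.57. Of the 10 genes, 7 lay above that median in GMP, 3 in preNeu and 4 in matNeu. The fold enrichment is relative to the background of each library and was not normalised between libraries, so it does not rank the stages by the amount of the mark. Smarca2 had the highest and Smarcd1 the lowest promoter enrichment of the 10 genes in each of the 3 stages. Smarcb1 and Smarcc1, whose mRNAs fell most of the 10 from GMP to matNeu, had promoter peaks in matNeu at 9.26-fold and 9.90-fold. The middle of the Smarcc1 peak lay at -120 bp from the gene start and within the neighbouring gene Dhx30. That peak therefore cannot be assigned to Smarcc1 alone. With a -log10 q of at least 5, promoters of 5 of the 10 genes in GMP and of all 10 in preNeu and matNeu were marked, beside 39.8%, 90.6% and 89.1% of the tested genes. ATAC-seq gave a promoter peak at all 10 genes, beside 67.7% of the tested genes.

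**Figure D4:**
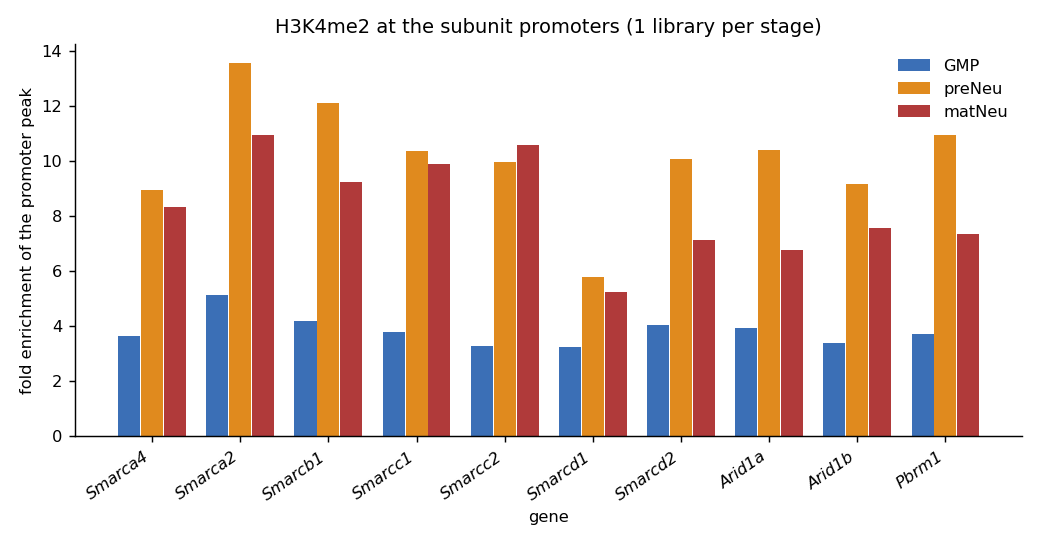
Fold enrichment of the strongest H3K4me2 peak at a promoter of each SWI/SNF gene in GMP (blue), preNeu (orange) and matNeu (red), with 1 library per stage and no error. GMP bars are lowest for every gene, as is the median over all tested genes (3.59, beside 10.6 in preNeu and 8.57 in matNeu), in values that were not normalised between libraries.

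In GMP, preNeu and matNeu, Smarca4 and Smarca2 each had 2, 4 and 4 H3K4me2 peaks, while Pbrm1 had 3, 2 and 2. The lower count at Pbrm1 was not a smaller covered length. Peaks covered 5.13%, 9.76% and 7.03% of its window in the same order. Separate GMP peaks at its start (chr14:31017274-31018885 and chr14:31019848-31020522) lay within a wider preNeu peak (chr14:31016905-31021691). Arid1b had the longest window of the 10 genes (373.3 kb). It differed most between stages in its number of peaks, a count not corrected for length. There were 13 in GMP, 26 in preNeu and 21 in matNeu, the promoter peak of Arid1b included. Of its 24 CHD4 sites, 7 overlapped H3K4me2 in GMP, 19 in preNeu and 17 in matNeu. Over all 31 sites the shares were 38.7%, 77.4% and 71.0%, beside 37.8%, 59.5% and 52.5% of all CHD4 peaks. Thus 13 of the 24 sites (54.2%) overlapped H3K4me2 in preNeu or matNeu and not in GMP, beside 28.9% of all CHD4 peaks, and 4 overlapped it in no stage. With equal numbers of H3K4me2 peaks taken from each list, 12 of the 24 did so. The share of all CHD4 peaks was not counted in that setting, so this count has no background beside it. The 7 CHD4 sites more than 290 kb from the gene start all lacked H3K4me2 in GMP and all overlapped it in preNeu and in matNeu. That stretch was chosen after the values were seen. Arid1b mRNA was lower in preNeu and matNeu than in GMP, as given above. An intronic H3K4me2 peak centred 195655 bp from the gene start in preNeu, with no CHD4 peak, was as strong as the promoter peak of Arid1b, at 9.88-fold against 9.19-fold in preNeu and 7.75-fold against 7.57-fold in matNeu.

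**Figure D5:**
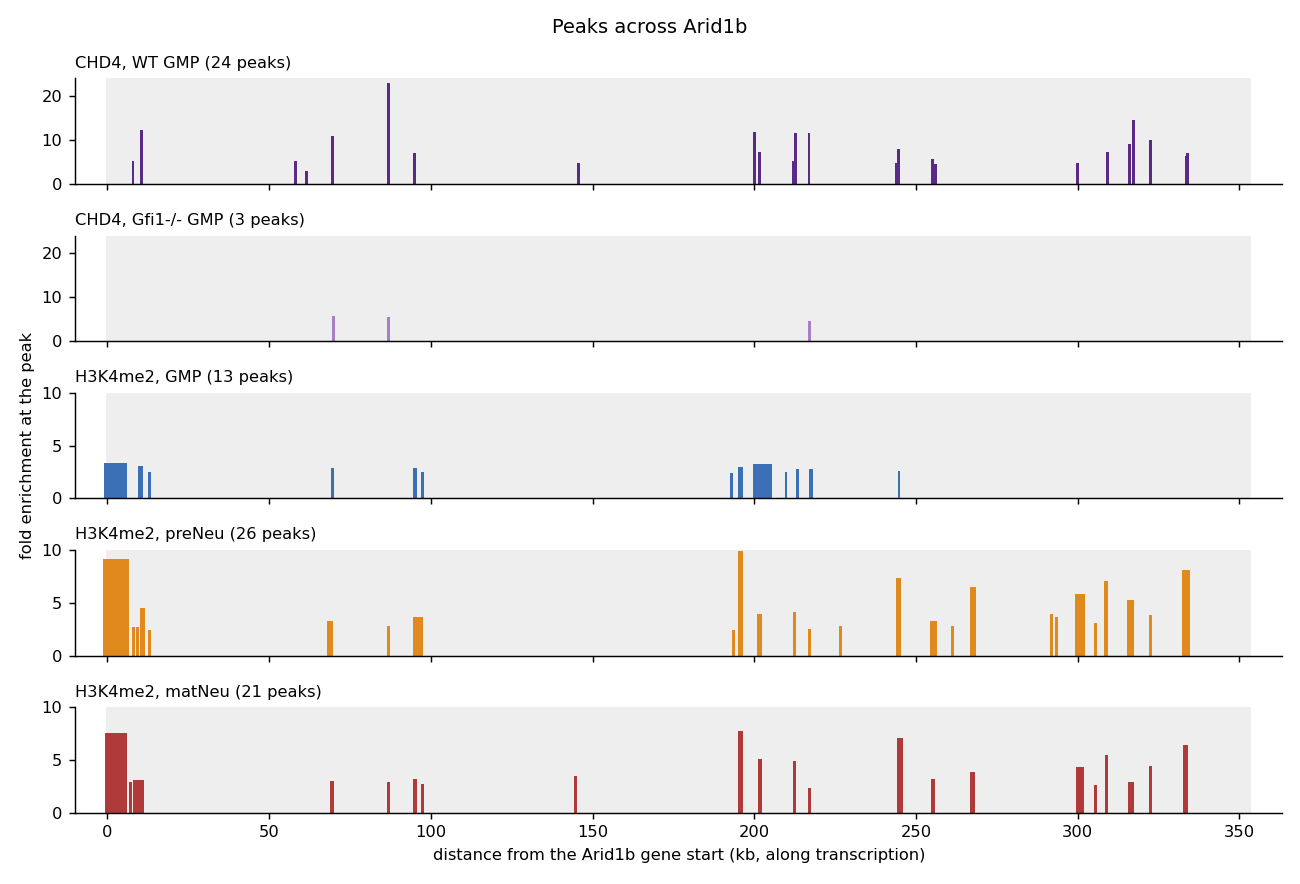
Peaks across Arid1b by distance from its gene start in kb (grey, the gene), with the fold enrichment of each peak as the bar height, for CHD4 in WT and Gfi1-/- GMPs and for H3K4me2 in 3 stages; bars under 0.9 kb are drawn 0.9 kb wide. Of 24 CHD4 peaks in WT GMPs 3 have a counterpart in Gfi1-/- GMPs, and the 7 beyond 290 kb have H3K4me2 in preNeu and matNeu but none in GMP.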

How the data were processed

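RNA-seq covered 3 libraries each of GMP, preNeu and matNeu cells. The authors deposited TPM per gene and library. Their methods state TopHat and HTSeq, while the submitters' processing notes name kallisto 0.44.0 without its role, so how TPM was made is not given in the sources used here. TPM keeps no depth, and no count test was run. Samples were grouped by title, since the cell type field differs from the title for 13 of 18 samples. 0 columns were left unused. The table labels Arid1b a processed transcript, although GENCODE vM21 gives a protein-coding gene.

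For each peak the authors deposited a fold enrichment (ratio) and a −log10 q as the peak caller gave them (the notes name BWA 0.7.17 and MACS2 2.1.0). Read depth is unknown. The score the authors deposited with each peak was not used. CHD4, H3K4me2 and ATAC-seq lists fit GRCm38. The GFI1 and H3K4me3 lists do not and were not used, and the identical ATAC-seq lists of preNeu and matNeu were taken as 1. The targeted gene, Gfi1, cannot be checked in a peak list.

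limma 3.58.1 in R 4.3.3 was fitted to log2(TPM + 1) of the 13061 genes that reached 1 TPM in 3 or more libraries, with stage as the only term, a variance trend and Benjamini-Hochberg adjustment over all genes at 0.05. A fold change on this scale understates that of low genes. Paralog log2 ratios of TPM were tested by exact permutation over the 9 libraries. Peaks within 10 kb of a gene, promoters (2 kb before to 500 bp after a protein-coding start in GENCODE vM21) and overlaps of at least 1 bp were found with Python 3.11.15, numpy 2.4.6 and pandas 2.3.3, plots were drawn with matplotlib 3.10.9, and the scripts were tested on simulated data. Named were the 10 members, other subunits with a called log2 change of at least 1 or not tested, and the 3 nearest genes of 4 paralogs. Alternatives covered the pseudocount, the filter, 2 other scalings, the replicate block, leaving out each library and peak thresholds. The members and lists were chosen with earlier results of these data known.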

Additional observations from a re-analysis of the deposited data

How the results depend on the processing

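Each call was repeated under 18 other settings. For the log2 changes of the 10 genes, 483 of 540 repeats kept direction and call, 32 lost and 12 gained a call, and 13 changed sign. Scaling by the median of ratios turned Arid1a to 0.040, 0.19 and 0.23 (preNeu against GMP, matNeu against preNeu, matNeu against GMP), Pbrm1 to 0.25 (preNeu against GMP), Arid1b to 0.31 (matNeu against preNeu) and, in matNeu against GMP, Smarcc2 to 0.018 and Smarcd2 to 0.61. Leaving out the most abundant genes turned Pbrm1 to 0.12 (preNeu against GMP). Without 1 library each, uncalled values near 0 changed sign: Smarcc2 ranged from -0.012 (without GMP replicate 1) to 0.11 and Smarcd2 from -0.047 (without GMP replicate 1) to 0.35 in preNeu against GMP, and Arid1b from -0.24 to 0.29 (without matNeu replicate 2) in matNeu against preNeu. The cause was not tested. With a minimum log2 change of 1, the calls were 2 of 10 in preNeu against GMP, 4 of 10 in matNeu against preNeu and, among the other subunits in preNeu against GMP, 4 of 15, since fewer calls can pass. Of all 13061 tested genes, 5471 were then called in preNeu against GMP and 6360 in matNeu against preNeu. Median-of-ratios scaling left 8 calls among the other subunits in matNeu against GMP (main count 14), beside 9951 over all tested genes (main count 10041).

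Without 1 library each, the calls among the 10 genes ranged from 3 to 5 (3 without GMP replicate 2), 5 to 7 and 9 to 10 in the 3 comparisons, and among the other subunits from 6 to 9, 10 to 12 and 13 to 14. The mean log2 ratio in matNeu minus GMP ranged from -4.25 to -3.66 (Smarca4 to Smarca2), -3.84 to -3.26 (Smarcc1 to Smarcc2), -3.03 to -2.56 (Smarcd1 to Smarcd2) and 0.36 to 0.73 (Arid1a to Arid1b). Same-numbered libraries did not deviate together (1 of 9 correlations over 0.1, from -0.04 to 0.12). Libraries of the same animals need not deviate together, so whether the numbers pair samples stayed unknown. With the replicate block the calls among the 10 genes were 4, 7 and 9, and the first 3 ratios had an exact p of 0.0278, the smallest it allows, and Arid1a to Arid1b 0.111. With a -log10 q of at least 5, H3K4me2 peaks near the 10 genes were 8 in GMP, 36 in preNeu and 31 in matNeu. With equal numbers of peaks per list they were 43, 47 and 50. CHD4 counts (27 to 31) and the 3 retained sites held under the alternatives run. The setting with equal numbers for the CHD4 sites of Arid1b was chosen after seeing the data. Without known depth, the absence of a peak does not show the absence of CHD4 or of the mark.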
